A study of Mus musculus with 6 samples.

Results

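The genes described here are 5 genes that handle adenosine triphosphate (ATP), nicotinamide adenine dinucleotide (NAD) and adenosine outside the cell: Entpd1, Nt5e, Cd38, Adora2a and P2rx7. They were chosen by name, as 5 of the 32285 genes in each matrix, and all 5 had unique molecular identifier (UMI) counts on both days. A UMI marks 1 captured RNA molecule. The study sorted cells carrying CD3 with CD4 or CD8 from tumors of CT2A, a mouse glioma line grown in the brain, from wild-type C57BL/6J mice of 6 to 8 weeks. The groups are day 13 (16 mice, pooled by 4 for each replicate) and day 19 (4 mice), and no treatment separates them. Each day was run as 1 capture with 5' chemistry, giving libraries of gene expression, antibody tags and TCR (T cell receptor) sequences, 6 samples in all. The series title concerns antigen presentation by tumor macrophages and the passage of T cells from progenitor to terminal exhaustion, and the days compare an earlier with a later tumor.

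ATP released by stressed or dying cells acts as a danger signal. Entpd1 encodes CD39, a surface enzyme that cuts ATP and ADP to AMP, and Nt5e encodes CD73, which cuts AMP to adenosine. Cd38 encodes CD38, an enzyme that consumes NAD and opens a second route toward AMP. Adora2a encodes a cyclic-AMP-raising adenosine receptor that restrains T cells, and P2rx7 encodes an ATP-gated channel of T cells and macrophages. In mouse T cells ART2 enzymes use NAD to modify and open that channel, so NAD consumed by CD38 bears on P2rx7 as well. CD39 and CD38 are known as markers of exhausted CD8 T cells in tumors, and CD39 and CD73 as surface enzymes of mouse regulatory T cells.

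On the mm10 build (GRCm38.p6 in RefSeq) Entpd1 lies at chr19:40612366-40741602, Nt5e at chr9:88327609-88372089, Cd38 at chr5:43868809-43912374, Adora2a at chr10:75316877-75334792 and P2rx7 at chr5:122643927-122692336. The 250 bases before the annotated starts of Entpd1 and Cd38, the members past 2-fold between CD8 barcodes with both exhaustion genes and with neither, below, are shown to make those control regions visible. They are RefSeq sequences on the plus strand, at chr19:40612116-40612365 for the first Entpd1 start, chr19:40659520-40659769 for the second and chr5:43868559-43868808 for Cd38. Capitals mark exact matches, on either strand, to the 5 motifs searched, which can overlap each other: AP-1 (TGANTCA), the core of the cyclic AMP response element (CRE, TGACG), the hypoxia element (ACGTG), the NFAT core (GGAAA) and RUNX (TGTGGT).
Entpd1 first start: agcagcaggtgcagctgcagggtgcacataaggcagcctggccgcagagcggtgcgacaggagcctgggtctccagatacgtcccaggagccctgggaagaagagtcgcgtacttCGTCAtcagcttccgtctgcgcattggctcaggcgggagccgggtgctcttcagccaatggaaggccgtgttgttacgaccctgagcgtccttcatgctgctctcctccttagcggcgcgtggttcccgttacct
Entpd1 second start: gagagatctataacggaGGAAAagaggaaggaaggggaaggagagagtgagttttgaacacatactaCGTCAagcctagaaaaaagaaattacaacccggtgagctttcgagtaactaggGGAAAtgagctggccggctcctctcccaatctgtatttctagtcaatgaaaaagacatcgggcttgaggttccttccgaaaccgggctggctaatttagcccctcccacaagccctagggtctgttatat
Cd38: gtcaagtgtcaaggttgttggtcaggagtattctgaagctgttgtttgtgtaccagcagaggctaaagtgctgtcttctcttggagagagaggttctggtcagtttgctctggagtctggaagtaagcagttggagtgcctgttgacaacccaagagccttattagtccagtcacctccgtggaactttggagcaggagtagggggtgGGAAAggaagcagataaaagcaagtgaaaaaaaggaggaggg

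Both Entpd1 windows hold the CRE core, read as CGTCA on the plus strand, 135 and 183 bases before the start. The second Entpd1 window also holds the NFAT core 233 and 130 bases before the start, and the Cd38 window holds it 42 bases before. No AP-1, hypoxia or RUNX letters are in these 3 windows. Over 32851 RefSeq windows of the same 250 bases, 17.8% hold the CRE core, 55.6% the NFAT core, 6.75% AP-1, 16.6% the hypoxia element and 14% RUNX, so such matches are common and describe letters only.

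A barcode, the droplet tag, was kept with at least 5000 gene UMIs and at most 10% mitochondrial UMIs, which left 8878 at day 13 and 4667 at day 19. Of these 4632 and 3215 were in the TCR contig tables, with median gene UMIs of 7608 and 10079. Contig barcodes with Cd8a or Cd8b1 and no Cd4 UMI are called CD8 (2959 and 1800), and those with Cd4 alone CD4 (797 and 794). The remaining 876 and 621 contig barcodes had neither or both and were not used. Despite the CD3 sort, 1017 and 343 barcodes outside the contig tables had no UMI of Cd3d, Cd3e or Cd3g. Levels are CPM, UMIs per 1000000 gene UMIs of the summed barcodes, with exact Poisson 95% intervals in brackets. The 4 contig sets of a day follow 4 multiplexing tags, which mark cells before they are pooled: a tag of its own had the highest count in 98.9% to 100% of a set's barcodes at day 13 and in 83.9% to 92.1% at day 19. The labels tie neither tags nor sets to a mouse or a pool of mice. The sets are therefore given as a description of the spread within a capture, with no test over them. Intervals cover counting error only, and day, capture and staining cannot be told apart. The sets of 1 day also shared expanded clonotypes (5.88% to 11.8% of them at day 13, and at least 29.5% at day 19). The days shared 62 barcodes, and leaving these out moved no member's ratio beyond its interval.

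Cd3e, which the classes did not use, stood at 1051 CPM in CD8 and 792 CPM in CD4 barcodes. Both also carried myeloid RNA: Lyz2 stood at 354 CPM in CD8, 1352 in CD4 and 5376 CPM in barcodes without Cd3, and H2-Aa at 491, 2087 and 5860 CPM. More than 0.1% of gene UMIs came from 8 myeloid genes in 13.5% (day 13) and 21.1% (day 19) of CD8 barcodes, and in 48.2% and 58.2% of CD4 barcodes. Since myeloid cells carry Entpd1 and P2rx7, values are also given without those barcodes, called myeloid-low, which leaves 2561 and 1421 CD8 and 413 and 332 CD4 barcodes. The part of droplet mixtures in a difference was otherwise not tested.

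Among CD8 barcodes, Entpd1 and Cd38 were higher where Pdcd1 and Havcr2 were detected, Nt5e was lower, and Adora2a was near level. Pdcd1 and Havcr2 encode PD-1 and TIM-3, inhibitory receptors that together mark terminally exhausted CD8 T cells. In 2426 barcodes with neither gene Entpd1 stood at 14.9 CPM (300 UMIs), and in 819 with both at 112 CPM (1424 UMIs). The log2 ratio was 2.91 [2.73, 3.10]. By contig set, the level in barcodes with neither gene was 34.3, 15.3, 9.31 and 16.1 CPM at day 13 and 15.5, 14.3, 14.7 and 13.1 CPM at day 19. With both genes it was 89.3, 97.7, 85.2 and 107 CPM at day 13 and 71.5, 126, 148 and 123 CPM at day 19. The lowest of the 8 sets with both genes was above the highest with neither. Barcodes with Havcr2 alone were at 84.9 CPM, 2.51 [2.25, 2.77] above neither. Only 51 of these 175 were myeloid-low, and there Entpd1 was 51.7 CPM (31 UMIs). The myeloid-low level was 47.2 CPM with Pdcd1 alone and 109 with both. Over all barcodes, those with Pdcd1 alone were at 1.87 [1.67, 2.06] above neither. Those with both were higher than Pdcd1 alone by a further 1.04 in 8 of 8 sets.

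The state rests on detection, and barcodes with both genes were deeper (median 13163 gene UMIs) than those with neither (7024). After each barcode was thinned to 5000 UMIs, Entpd1 was detected in 44.6% [41.1, 48.0] of barcodes with both genes and 5.48% [4.61, 6.46] with neither. With the states themselves called on thinned counts the log2 ratio was 2.24. Myeloid RNA above the limit was found in 27.1% (day 13) and 24.8% (day 19) of barcodes with both genes, against 8.39% and 14.4% with neither. In myeloid-low barcodes Entpd1 stood at 109 against 8.63 CPM, a log2 ratio of 3.66 [3.41, 3.92].

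Cd38 had a different ladder across the states. At day 13 it was 17.0 CPM with neither gene, 44.7 with Pdcd1 alone, 15.9 with Havcr2 alone and 42.3 CPM with both. At day 19 it was 14.2, 36.4, 24.4 and 54.7 CPM in the same order. Barcodes with Pdcd1 alone were thus already above neither, by 1.38 on the log2 scale in 7 of 8 sets, while the interval of Havcr2 alone against neither included 0 (0.28 [-0.19, 0.72]). In myeloid-low barcodes Havcr2 alone gave 1.13 [0.39, 1.78] for Cd38, but was higher in only 2 of 5 sets. At day 13 it was lower than neither, 13.3 (4 UMIs) against 16.5 CPM. At day 19 it was higher, 53.4 (16 UMIs) against 13.1 CPM. Both genes against neither gave 1.63 [1.43, 1.82] for Cd38 in 8 of 8 sets, and 1.82 in myeloid-low barcodes. Both against Pdcd1 alone gave 0.25.

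Nt5e went the other way. It stood at 35.1 CPM with neither gene, 34.2 with Pdcd1 alone, 20.2 with Havcr2 alone and 22.4 CPM with both. Both against neither gave -0.65 [-0.85, -0.45], lower in 8 of 8 sets, and -0.75 in myeloid-low barcodes, lower in 7 of 8. The Nt5e level with Pdcd1 alone was close to that with neither (-0.04). Havcr2 alone against neither gave -0.80 [-1.24, -0.38], and -0.63 [-1.51, 0.12] in the 51 myeloid-low barcodes of that state.

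Of the receptors, Adora2a stood at 38.1 CPM with neither gene, 44.3 with Pdcd1 alone, 27.9 with Havcr2 alone and 35.6 with both. Its ratio of both to neither, -0.10 [-0.27, 0.07], includes 0 and was positive in 4 of 8 sets. By day it was 0.19 [-0.03, 0.41] and -0.26 [-0.54, 0.03]. P2rx7 was scarce in CD8 barcodes, at 6.69 CPM with neither gene, 10.9 with Pdcd1 alone, 14.2 with Havcr2 alone and 6.21 with both. With the days summed Havcr2 alone was highest, 1.08 [0.50, 1.63] above neither and higher in 5 of 8 sets, but 28 of its 35 UMIs were from day 13 (19.3 CPM). At day 19 it was 6.83 CPM, below Pdcd1 alone at 9.77. Only 51 of its 175 barcodes were myeloid-low, and these held 0 P2rx7 UMIs, with an upper limit of 6.15 CPM. In myeloid-low barcodes P2rx7 stood at 2.36 CPM (21 UMIs) with both genes against 5.41 with neither, -1.20 [-1.95, -0.50], but was lower in only 5 of 8 sets. That sum mixes the days, since 360 of the 608 barcodes with both genes and 680 of the 2175 with neither were from day 19. Within day 13 it was 4.65 (18 UMIs) against 6.33 CPM, -0.45 [-1.28, 0.32], and within day 19 0.597 (3 UMIs) against 3.79 CPM, -2.67 [-5.04, -0.95]. Between barcodes with both genes and with neither, 2 members, Entpd1 and Cd38, were past 2-fold higher and 0 lower, against 10.0% higher and 4.36% lower among the 10016 genes tested. The median log2 ratio was -0.10 for the members and 0.13 for all genes. In myeloid-low barcodes with the days summed the same 2 were higher and P2rx7, under 2-fold within day 13, was lower, against 8.91% and 6.06% of genes.

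**Figure D1:**
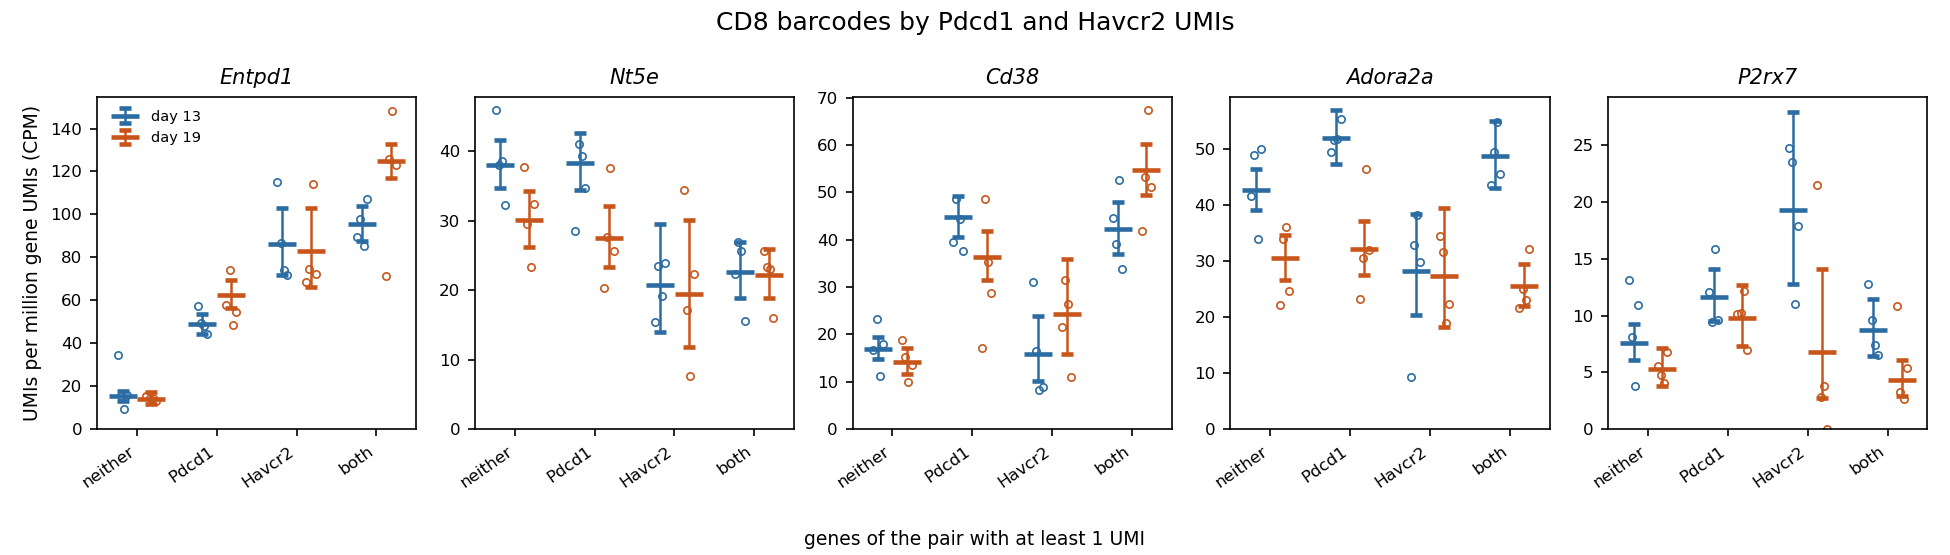
CPM of the 5 genes (vertical axes, each from 0) in CD8 barcodes by detected Pdcd1 and Havcr2, at day 13 and day 19; bars are group levels with exact 95% counting intervals and points are the 4 contig sets of a day. Entpd1 goes from neither gene (15.3 and 14.2 CPM) to both (95.4 and 125 CPM), Cd38 is high wherever Pdcd1 is detected, and Nt5e is lowest where Havcr2 is. For Havcr2 alone in myeloid-low barcodes the Nt5e interval against neither includes 0 (-0.63 [-1.51, 0.12]).

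Between the days, CD8 barcodes at day 19 had higher Entpd1 and lower Nt5e, Adora2a and P2rx7 levels than at day 13. Entpd1 was 45.0 [42.6, 47.5] CPM at day 13 and 67.3 [63.8, 70.8] at day 19, a log2 ratio of 0.58 [0.47, 0.69]. The sets were 62.1, 44.3, 35.2 and 51.6 CPM at day 13 and 48.9, 74.4, 76.6 and 56.0 at day 19, so they overlapped. Thinned shares with an Entpd1 UMI were 14.9% and 22.1% (22.2% and 37.7% unthinned). The difference between days was not seen in every state: it was -0.10 [-0.46, 0.24] with neither gene, 0.36 [0.15, 0.56] with Pdcd1 alone and 0.39 [0.23, 0.54] with both. By clone size, described below, it was -0.02 [-0.26, 0.22] in single clonotypes and 0.44 [0.26, 0.62] in those of 3 or more. The differences between these ratios were not tested.

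Cd38 in CD8 barcodes was 30.6 CPM at day 13 and 34.1 at day 19 (0.16 [0.01, 0.30]), with sets from 26.6 to 35.4 and from 24.5 to 38.8 CPM. Without day 19 contig set 2 that ratio was -0.01, and without day 13 contig set 2 it was 0.29. Within states it was higher at day 19 with both genes (0.37 [0.13, 0.61]) and lower with Pdcd1 alone (-0.30 [-0.55, -0.05]). Nt5e was 34.3 and 26.3 CPM, -0.38 [-0.54, -0.23], but -0.03 [-0.38, 0.32] in barcodes with both genes. Its sets were 32.5, 37.0, 36.0 and 27.7 CPM at day 13 and 28.3, 26.3, 25.4 and 25.8 at day 19, and overlapped at 1 set of each day.

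Adora2a was the member whose CD8 sets separated the days: 41.2, 49.4, 42.6 and 48.9 CPM at day 13 against 23.4, 29.6, 32.6 and 28.5 at day 19. Summed, it was 46.1 and 29.1 CPM, -0.66 [-0.80, -0.52], and -0.66 in myeloid-low barcodes. The lower level was found with neither gene (-0.49), with Pdcd1 alone (-0.69) and with both (-0.93 [-1.21, -0.66]), but not with Havcr2 alone (28.3 and 27.3 CPM, -0.05 [-0.80, 0.68]). It was found in single clonotypes (-0.63) as in expanded ones (-0.64). RNA in barcodes with 1 to 99 UMIs, which are mostly empty droplets, moved alike, with Adora2a at 45.7 CPM at day 13 and 28.9 at day 19, so a lower value at day 19 was also found outside CD8 barcodes.

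P2rx7 in CD8 barcodes was 9.66 CPM at day 13 and 6.20 at day 19, -0.64 [-0.95, -0.34]. The sets were 13.8, 9.51, 8.14 and 9.78 at day 13 and 9.78, 5.53, 5.27 and 6.20 at day 19, and overlapped. In myeloid-low barcodes it was 7.47 and 3.59 CPM, -1.06 [-1.52, -0.62]. In single clonotypes the interval included 0: P2rx7 was 7.95 and 7.50 CPM, -0.08 [-0.56, 0.39], and 6.04 and 6.17 CPM in myeloid-low ones. In clonotypes of 3 or more P2rx7 was 9.31 and 4.12 CPM, -1.18 [-2.03, -0.39], from 56 and 18 UMIs. In CD4 barcodes, where P2rx7 was more abundant, it was 33.5 and 19.9 CPM, -0.75 [-1.02, -0.49]. The CD4 sets stood at 38.6, 36.6, 26.2 and 34.1 CPM against 26.9, 18.6, 19.6 and 19.9, overlapping by 1 set of each day. Without the barcodes of high myeloid RNA the CD4 levels were 39.6 and 16.9 CPM, -1.23 [-1.71, -0.76], with sets of 51.5, 40.3, 30.7 and 41.1 against 12.5, 14, 27.1 and 15.9 CPM, which did not overlap. Barcodes of 1 to 99 UMIs also held less P2rx7 at day 19 (18.4 and 10.6 CPM).

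In CD4 barcodes Entpd1 was 83.7 and 87.2 CPM (0.06) and Nt5e 52.5 and 50.1 (-0.07), while Cd38 was 13.6 and 18.9 (0.47 [0.13, 0.82], or 0.27 without day 19 contig set 2) and Adora2a 47.1 and 38.9 (-0.28 [-0.48, -0.07]). By the 2-fold rule 0 of 5 members were called between days. Of all genes tested, 1.6% were higher and 1.65% lower at day 19 in CD8, and 1.82% and 1.38% in CD4 barcodes. In myeloid-low barcodes P2rx7 alone was past 2-fold, in both classes (in CD8 not in single clonotypes, as above), against 1.66% of genes lower in CD8 and 1.59% in CD4.

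Expanded CD8 clonotypes, groups of barcodes with the same TCR, held more Entpd1 and Cd38 than single ones. By clonotype sizes of 1, 2, 3 to 9, and 10 or more barcodes, Entpd1 was 28.8, 57.5, 67.7 and 103 CPM at day 13 and 28.4, 90.0, 97.4 and 133 at day 19, higher with each size class. Cd38 was 20.7, 53.0, 59.5 and 53.4 CPM at day 13 and 16.5, 51.7, 52.0 and 66.4 at day 19, with most of the difference between 1 and 2. For 3 or more against 1, Entpd1 gave 98.0 against 28.6 CPM (1.78 [1.63, 1.92]) and Cd38 57.7 against 19.1 (1.60 [1.41, 1.78]), each in 8 of 8 sets. Myeloid-low values were 2.50 for Entpd1 and 1.69 for Cd38. These 2 members were past 2-fold higher, against 3.39% of genes, and 0 were lower, against 2.86%.

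Clone size and exhaustion state overlap, and the 2 enzymes differed in how they followed each. Among barcodes without Pdcd1 and Havcr2, Entpd1 was 52.1 CPM in clonotypes of 3 or more and 10.3 in single ones (2.33 [1.81, 2.83]), and Cd38 60.2 against 12.4 (2.28). Among barcodes with both genes the clone difference was small for Entpd1, 116 against 99.0 CPM (0.23 [0.00, 0.47]), and 0.50 for Cd38. In the myeloid-low ones the order of the 2 turned. There it was 116 against 77.1 CPM for Entpd1 (0.59 [0.27, 0.93]) and 0.36 [-0.06, 0.80] for Cd38. Held at clonotypes of 3 or more, barcodes with both genes had more Entpd1 than those with neither (116 against 52.1 CPM, 1.16, higher in 3 of 5 sets), but not more Cd38 (54.9 against 60.2, -0.13 [-0.56, 0.32]). Held at single clonotypes, both genes against neither gave 3.26 for Entpd1 and 1.65 for Cd38.

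Nt5e was 25.2 CPM in clonotypes of 3 or more and 33.4 in single ones (-0.40 [-0.61, -0.20]), lower in 7 of 8 sets. By day the ratio was -0.24 [-0.49, 0.01] at day 13 and -0.70 [-1.09, -0.33] at day 19, and without day 13 contig set 2 it was -0.79. Within expanded clonotypes Nt5e was 17.0 CPM with both genes and 46.3 with neither, -1.45 [-1.99, -0.88], lower in 4 of 5 sets. Within single clonotypes it was 30.8 and 33.7 CPM, -0.13 [-0.54, 0.26]. Adora2a differed little by clone size (41.7 against 38.1 CPM, 0.13), while the P2rx7 ratio, -0.13 [-0.54, 0.28] summed, was uneven: 1.47 [0.44, 2.37] with neither gene, -1.25 [-2.13, -0.36] with both, and by day 0.23 [-0.27, 0.71] and -0.87 [-1.71, -0.09], all from few UMIs. In clonotypes of 10 or more P2rx7 was 10.8 CPM at day 13 and 0.443 at day 19 (1 UMI in 178 barcodes).

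The large clones differed among themselves. At day 13, 14 CD8 clones of 10 to 32 barcodes ranged from 17.6 to 168 CPM for Entpd1 (median 92.5), from 1.33 to 88.0 for Nt5e (median 27.9) and from 7.17 to 124 for Cd38 (median 60.5). The largest, with 96.9% of 32 barcodes carrying both Pdcd1 and Havcr2, had Entpd1 at 135 and Nt5e at 1.33 CPM, a single UMI. A clone of 29 barcodes with 0 such barcodes had Entpd1 at 67.1 and Nt5e at 78.9 CPM, and 1 of 21 barcodes, 14.3% of them with both genes, had Entpd1 at 17.6, Nt5e at 88.0 and Cd38 at 93.9 CPM. These 3 were picked after their values were seen. At day 19 the 5 large CD8 clones lay closer together for Entpd1, from 111 to 150 CPM, with Cd38 from 44.6 to 79.6 and no P2rx7 UMI in 4 of the 5.

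**Figure D2:**
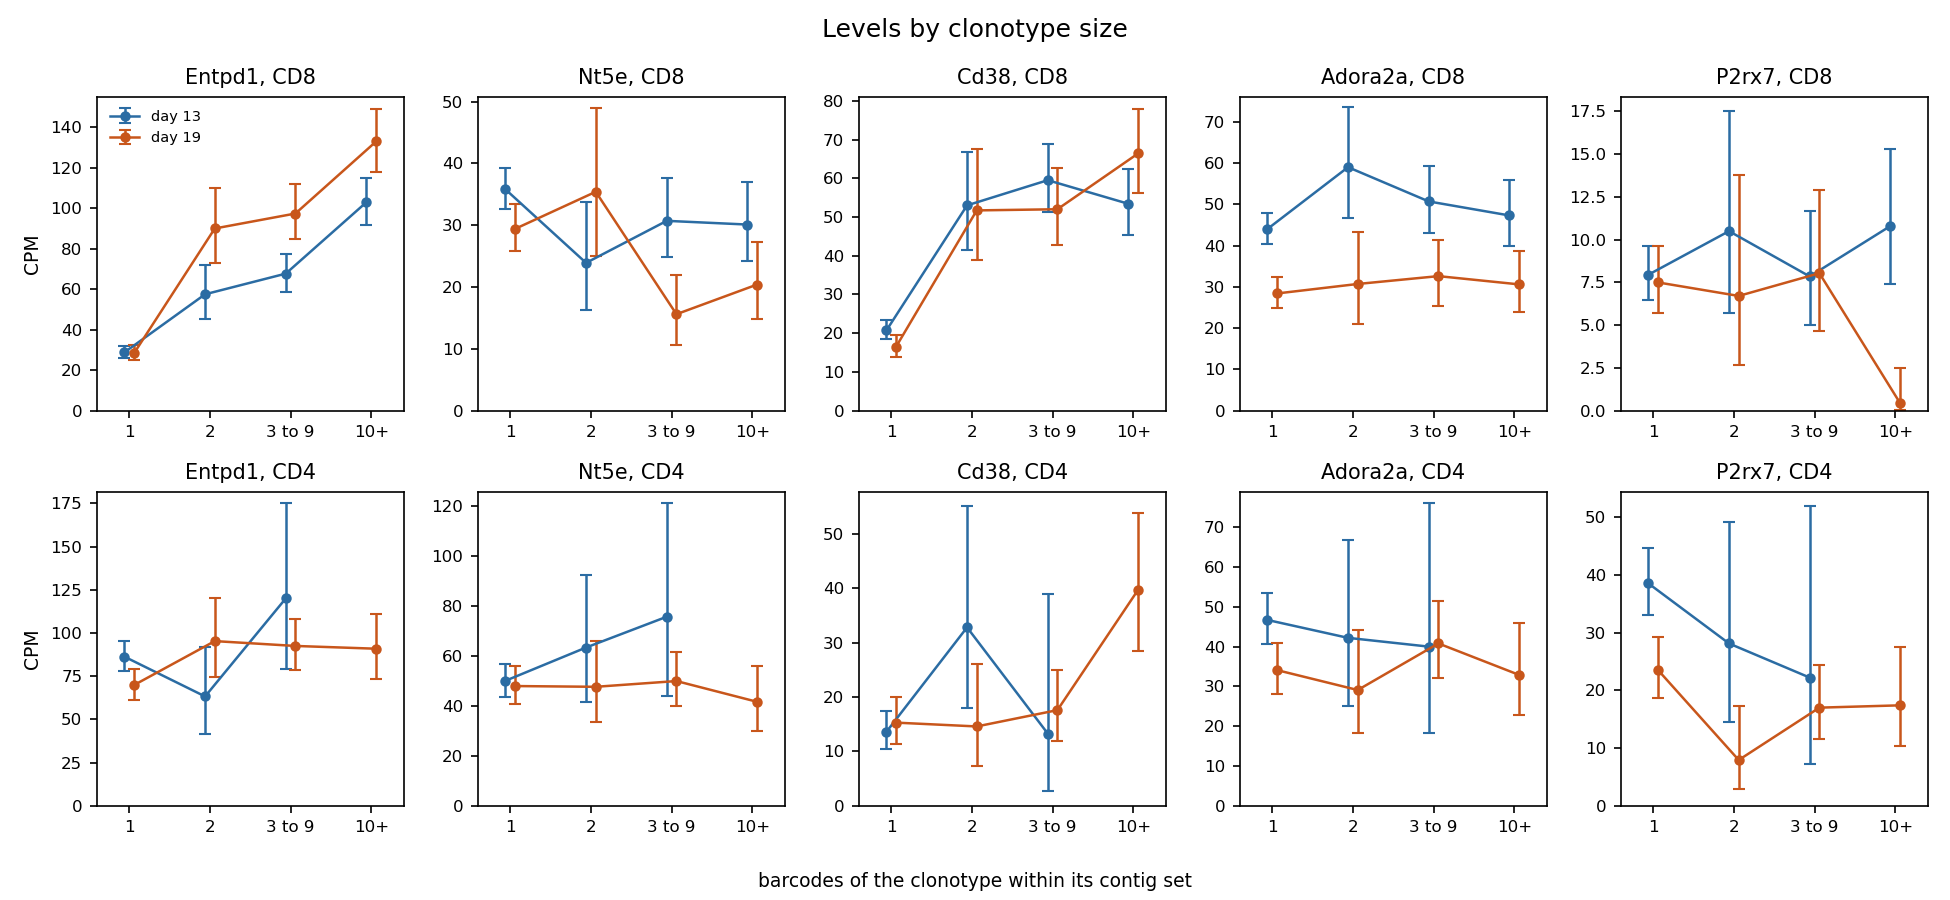
CPM of Entpd1, Nt5e, Cd38, Adora2a and P2rx7 (vertical axes from 0) against clonotype size class within a contig set, for CD8 and CD4 barcodes at day 13 and day 19; bars are exact 95% counting intervals. In CD8 barcodes Entpd1 goes from 28.8 and 28.4 CPM in single clonotypes to 103 and 133 CPM in those of 10 or more.

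CD4 barcodes held more Nt5e and P2rx7 than CD8 barcodes and less Cd38. Nt5e was 51.2 against 30.9 CPM (0.73 [0.61, 0.85]) and P2rx7 25.9 against 8.17 CPM (1.67 [1.47, 1.86]), each higher in 8 of 8 sets. In myeloid-low barcodes these ratios were 1.09 and 2.26. Cd38 was 16.6 against 32.1 CPM, -0.95 [-1.13, -0.78], lower in 8 of 8. Entpd1 was 85.7 against 54.6 CPM (0.65), but in myeloid-low barcodes 48.9 against 44.2 (0.14 [-0.03, 0.32]). The myeloid-low CD4 barcodes were also shallower, with a median of 6990 gene UMIs against 9531 in all, and the part of either in that shift was not tested. By day the myeloid-low Entpd1 levels of CD4 and CD8 barcodes were 43.9 and 33.8 CPM at day 13 and 53.8 and 59.3 at day 19, so their order turned. Of the members 1, P2rx7, was past 2-fold higher and 0 lower, against 11.0% and 2.95% of genes. In myeloid-low barcodes Nt5e was past 2-fold higher as well (1.09), and the share of all genes was not taken there.

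Foxp3, the defining transcription factor of regulatory T cells, split the CD4 barcodes into 517 with and 1074 without a UMI. Those with Foxp3 had more Il2ra (315 against 69.6 CPM), Ikzf2 (338 against 85.3) and Tnfrsf18 (667 against 321), further markers of regulatory T cells. Entpd1 was 99.8 against 76.7 CPM, only 0.38 [0.23, 0.52] apart and higher in 6 of 8 sets. Myeloid RNA above the limit was found in 55.7% (day 13) and 62.0% (day 19) of barcodes with Foxp3. It was common without Foxp3 too, where 311 of 567 and 223 of 507 barcodes were myeloid-low. With Foxp3 102 of 230 and 109 of 287 were. In the 211 and 534 myeloid-low barcodes Entpd1 was 95.3 against 26.1 CPM, 1.87 [1.53, 2.21]. Compared with all barcodes, the level with Foxp3 was thus little changed, while that without Foxp3 was lower. The myeloid-low sets with Foxp3 stood at 91.0, 103, 89.6 and 69.7 CPM at day 13 and 44.7, 98.0, 74.3 and 133 at day 19. Those without stood at 34.1, 26.7, 18.3 and 36.9, and at 14.1, 28.1, 19.5 and 19.6 CPM, so the groups did not overlap. Thinned shares were 34.6% and 10.1%.

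Nt5e was also higher with Foxp3, at 62.9 against 43.7 CPM (0.53 [0.34, 0.71], 7 of 8 sets), and at 94.4 against 56.1 CPM in myeloid-low barcodes (0.75 [0.48, 1.03]). At day 13 the myeloid-low sets were 112, 113, 137 and 116 CPM with Foxp3 and 54.6, 81.4, 45.7 and 60.3 without, and did not overlap. At day 19 they were 44.7, 84.8, 104 and 55.7 against 127, 53.7, 58.4 and 9.79 CPM, and did. Cd38 did not separate them (16.6 and 16.5 CPM, by day 0.35 and -0.27 with both intervals including 0), nor did Adora2a (39.9 and 44.2 CPM, -0.15), and P2rx7 was 21.2 against 28.9 CPM (-0.45; myeloid-low -0.21). Over all CD4 barcodes 0 of 5 were past 2-fold, against 1.41% of genes higher and 1.57% lower. In myeloid-low barcodes Entpd1 was, against 2.56% of genes higher.

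**Figure D3:**
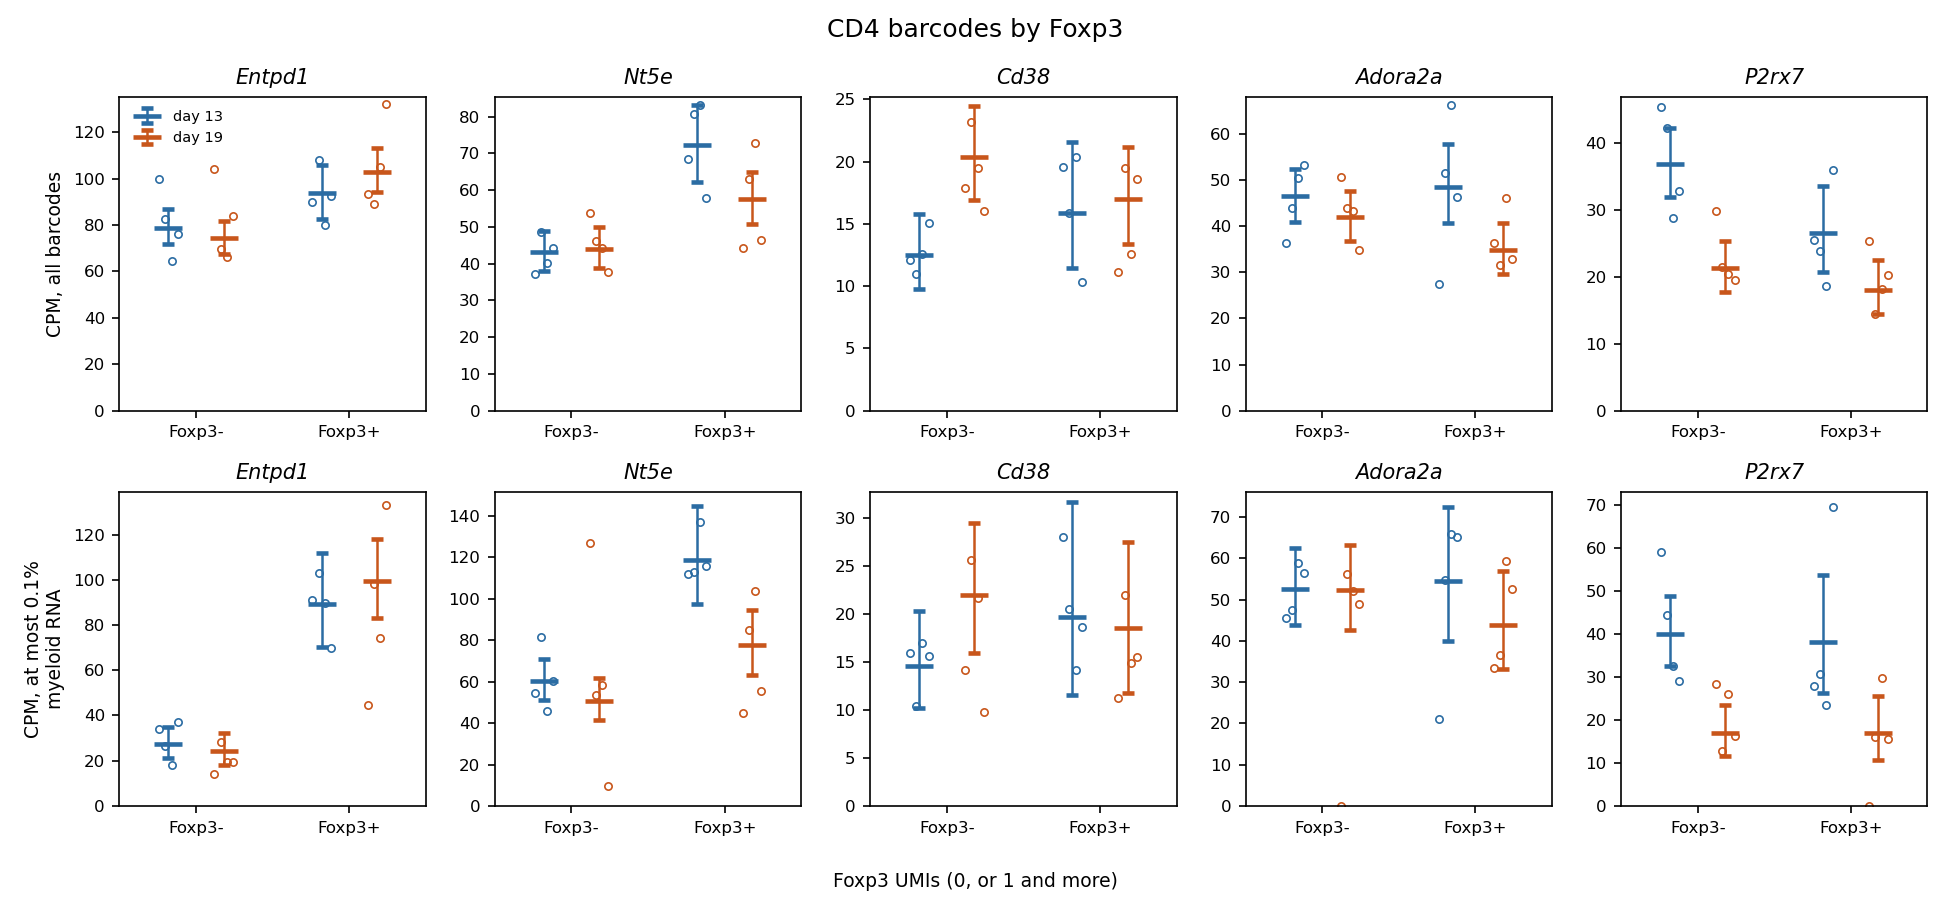
CPM of the 5 genes (vertical axes from 0) in CD4 barcodes without and with a Foxp3 UMI at day 13 and day 19, in all barcodes (top) and in those with at most 0.1% myeloid RNA (bottom); bars are exact 95% counting intervals and points are contig sets. The gap for Entpd1 is wide in the bottom panels (26.1 and 95.3 CPM over both days) and narrow in the top ones (76.7 and 99.8 CPM).

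Expanded CD4 clonotypes of 3 or more held less P2rx7 than single ones, 17.5 against 32.1 CPM (-0.87 [-1.33, -0.44]), lower in 6 of the 7 sets with at least 5 barcodes of each kind. Of the 236 barcodes of expanded CD4 clonotypes 213 were from day 19, when P2rx7 was lower. By day the values were 22.2 against 38.5 CPM (-0.79 [-2.43, 0.46]) at day 13 and 17.2 against 23.5 CPM (-0.45 [-1.0, 0.08]) at day 19, and both intervals include 0. In myeloid-low barcodes it was 11.8 CPM (11 UMIs) against 38.9 (-1.72), lower in 4 of 4 sets, but 78 of those 91 expanded barcodes were from day 19. Within day 19 the myeloid-low values were 10.7 against 22.7 CPM (-1.08 [-2.34, 0.03]), and within day 13 21.0 (2 UMIs) against 51.3 CPM (-1.29 [-4.36, 0.61]), and both intervals include 0. Within barcodes without Foxp3 P2rx7 was 19.3 against 36.5 CPM (-0.92). Entpd1 was 94.0 against 79.3 CPM (0.25), and in myeloid-low barcodes 72.9 against 39.9 CPM (0.87 [0.42, 1.31]), higher in 3 of 4 sets. Within day 19 that myeloid-low ratio was 0.75 [0.14, 1.35]. It came from clonotypes of 3 to 9 (76.2 CPM at day 19), while those of 10 or more, all from day 19, were at 30.1 CPM (9 UMIs), below single ones at 35.6. Nt5e (49.0 against 49.1 CPM) and Adora2a (38.1 against 41.3 CPM) were near level with the days summed. Cd38 was 24.8 against 14.3 (0.79 [0.35, 1.22]), but that rested on day 19 contig set 2, without which it was -0.24. A clone of 33 barcodes in that set had Cd38 at 61.6 CPM (22 UMIs). Without day 19 contig set 4 it was 1.07. Past 2-fold were 0 of 5 members, against 0.872% of genes higher and 1.53% lower, and in myeloid-low barcodes P2rx7 was lower with the days summed, against 2.74% of genes.

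The 1360 barcodes without Cd3 UMIs were mainly myeloid. Only 109 of them were myeloid-low, Lyz2 stood at 5376 CPM (1352 in CD4 barcodes) and Trac at 2.96. C1qa, at 1468 CPM, was not far above its level in CD4 barcodes (1245). Barcodes without Cd3 held more Entpd1 than CD8 barcodes, 121 against 54.6 CPM (1.15 [1.06, 1.24]), and more P2rx7, 19.0 CPM (1.22 [0.99, 1.45]). Nt5e was nearly missing, at 2.37 CPM (32 UMIs, -3.70 [-4.26, -3.20]), and Cd38 was 11.8 CPM (-1.45 [-1.69, -1.21]). The thinned share with an Nt5e UMI was 0.882% [0.457, 1.54], against 14.6% of CD8 and 22.0% of CD4 barcodes, at median depths of 9286, 8192 and 9531 gene UMIs. Barcodes of 1 to 99 UMIs held Nt5e at 34.1 and 33.1 CPM. Of the members 2 were past 2-fold higher and 2 lower, against 17.1% and 18.5% of genes, and the median log2 ratio was -0.30 for the members and -0.20 for all genes. Which members passed differed by day: Entpd1 was at 1.49 at day 13 and 0.64 at day 19, P2rx7 at 0.99 and 1.60, and Adora2a at -0.30 and -1.01, while Nt5e (-4.72 and -2.29) and Cd38 (-1.50 and -1.24) were past 2-fold lower on both days. With at least 8000 gene UMIs the Entpd1 ratio was 0.65 and that of P2rx7 0.98, both under 2-fold.

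Marker genes split these barcodes, and the members differed across the groups described here, which are not all of them. Entpd1 and P2rx7 had the same order over the microglia, C1q and monocyte groups. The cut-offs were set after the marker sums, not the members' values, were seen. In 133 barcodes with C1q and microglia genes, which also carried P2ry12 (1334 CPM) and Sparc (2023 CPM), Entpd1 was 352 CPM [319, 388] and P2rx7 63.1 [49.3, 79.4]. Another 57 with C1q genes alone had Entpd1 at 257, P2rx7 at 34.7 and Cd38 at 41.0 CPM. The 428 with monocyte genes had Entpd1 at 109, P2rx7 at 13.6 and Adora2a at 11.2 CPM.

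Adora2a stood apart in 121 barcodes with the mature dendritic genes Fscn1, Ccr7 and Ccl22, which also carried Cacnb3 (701 CPM) and Il4i1 (766 CPM). There it was 216 CPM [188, 247], 235 at day 13 and 158 at day 19, and 64.5% of them had an Adora2a UMI after thinning. The C1q barcodes had 1.58 CPM and those with microglia genes 1.75. Barcodes with mature dendritic genes were lowest for Entpd1, at 8.97 CPM, and had 0 Nt5e UMIs among 121. In 91 barcodes with type 2 dendritic genes Entpd1 was 62.8 and Adora2a 4.41 CPM. The 32 with natural killer genes carried Nt5e at 42.0 CPM, but from 11 UMIs, 10 of them at day 19.

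**Figure D4:**
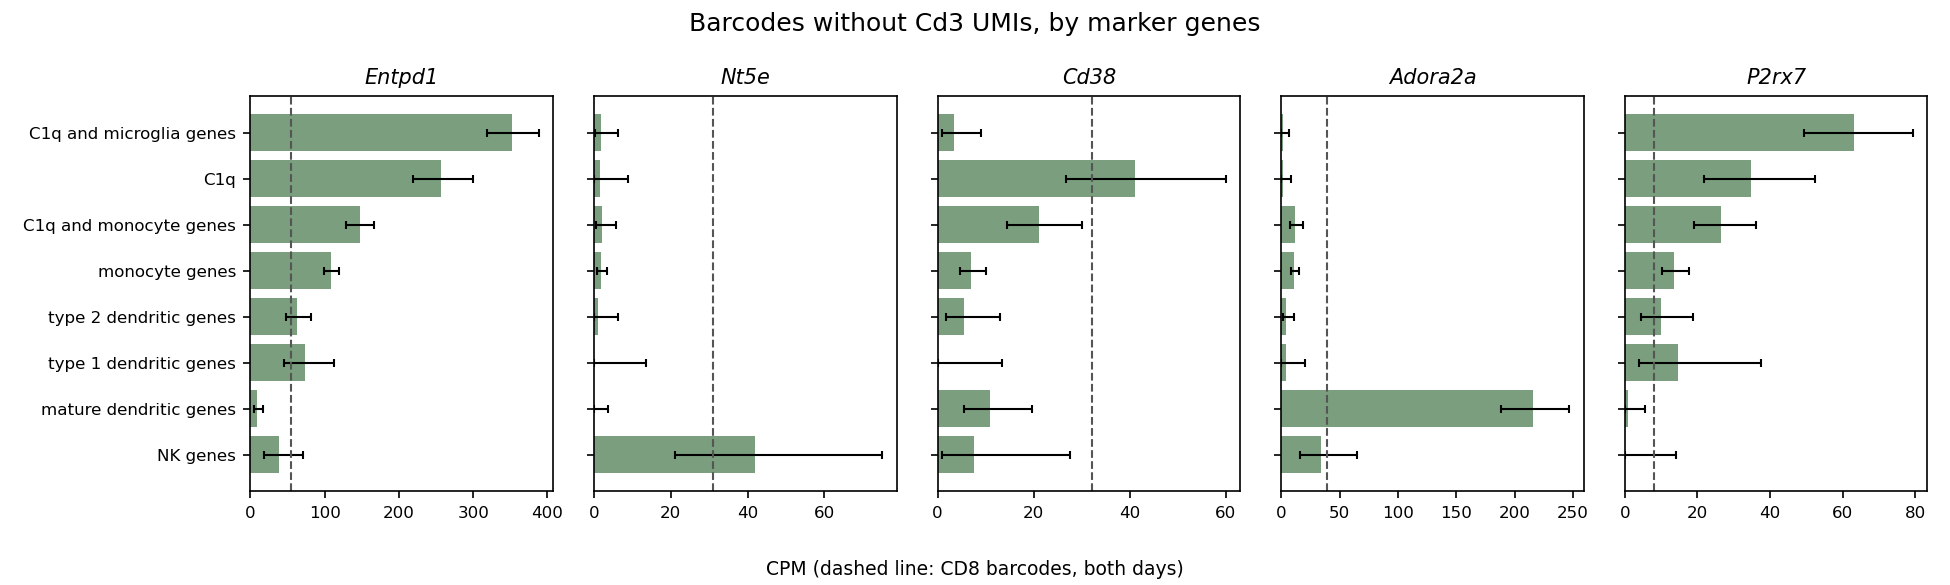
CPM of the 5 genes (horizontal axes) in barcodes without Cd3 UMIs, split by marker genes, both days summed, with exact 95% counting intervals; the dashed line is the level in CD8 barcodes. Entpd1 and P2rx7 are highest with microglia genes (352 and 63.1 CPM), Adora2a with mature dendritic genes (216 CPM), and Nt5e is near 0 outside the barcodes with natural killer genes.

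Antibody tags gave a second readout of CD39, CD73 and CD38 in the same barcodes. Values are median tag UMIs per 10000 tag UMIs of a barcode. In barcodes without Cd3, which carried Entpd1 but little Nt5e and Cd38 mRNA, the CD39 tag was 144 (day 13) and 152 (day 19), CD73 26.8 and 27.1, and CD38 23.3 and 23.4. CD8 barcodes with neither Pdcd1 nor Havcr2 carried less Entpd1 and more Nt5e mRNA. Their tags were close to these, at 139 and 142 for CD39, 30.6 and 32.5 for CD73, and 24.2 and 25.9 for CD38. The tags thus differed little between these groups. The isotype control tags together were 59.8 and 55.9 without Cd3, and 60.1 and 59.1 in those CD8 barcodes. The CD73 and CD38 tags lie below that sum in both groups. At day 19 CD39 in CD8 barcodes was 142 with neither Pdcd1 nor Havcr2, 157 with Pdcd1 alone, 171 with Havcr2 alone and 182 with both, and 191 in clonotypes of 10 or more against 145 in single ones. At day 13 the range over states was only 139 to 153. The CD38 tag at day 19 was 25.9 with neither, 34.8 with Pdcd1 alone, 32.2 with Havcr2 alone and 36.4 with both, the order of its mRNA. At day 13 the CD38 tag differed little, at 24.2, 26.5, 24.6 and 28.7 in the same order of states.

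Tags also followed the mRNA of their own gene. At day 19 CD39 was 145, 169 and 185 in CD8 barcodes with 0, 1 and 2 or more Entpd1 UMIs, and 147, 171 and 194 in CD4 barcodes. CD73 in CD4 barcodes at day 19 was 36.4, 41.0 and 51.8 with 0, 1 and 2 or more Nt5e UMIs, but in CD8 barcodes only 31.9, 33.9 and 34.3. With Foxp3 the CD39 tag was 146 (day 13) and 171 (day 19), and without it 144 and 153, so the gap at day 13 was small. The CD73 tag with Foxp3 was 37.5 (day 13) and 42.3 (day 19), and without it 32.1 and 37.9. The CD38 tag in CD4 barcodes hardly differed with Cd38 UMIs (26.7, 27.7 and 28.1 at day 19).

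**Figure D5:**
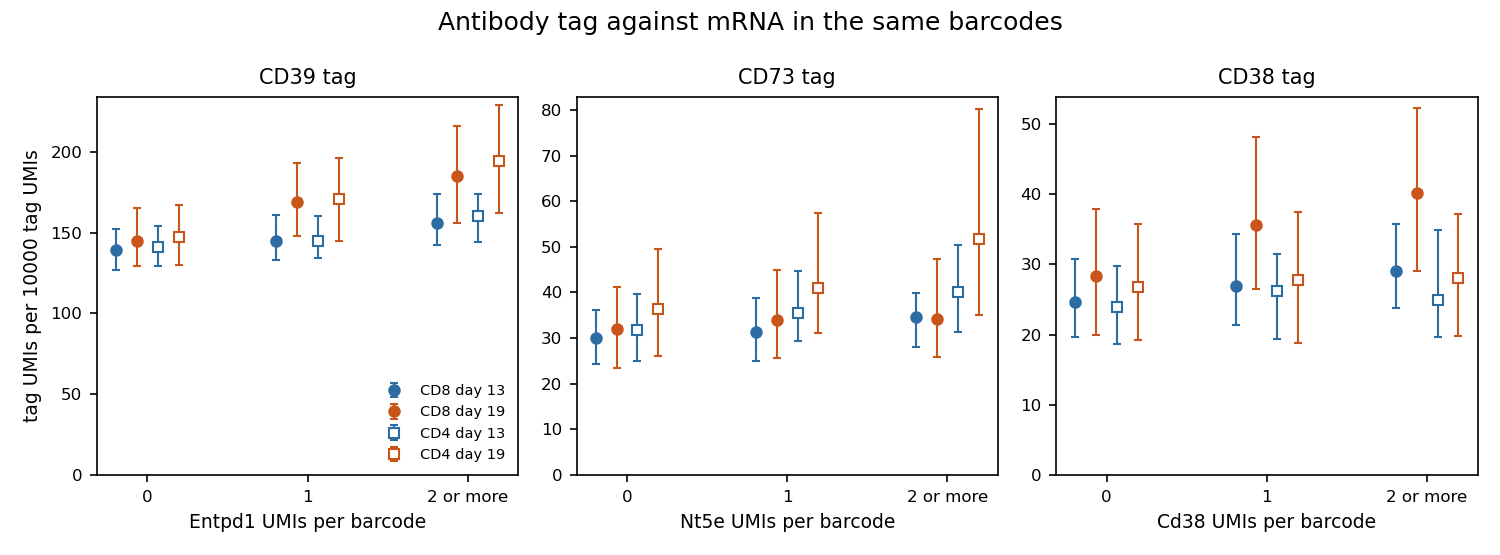
Median antibody tag UMIs per 10000 tag UMIs (vertical axes from 0) for CD39, CD73 and CD38 in barcodes with 0, 1 and 2 or more UMIs of the matching gene; filled circles are CD8 and open squares CD4 barcodes, and bars span the middle 50% of barcodes. CD39 at day 19 goes from 145 with 0 Entpd1 UMIs to 185 with 2 or more in CD8 barcodes.

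In single barcodes, the 2 enzymes that lead from ATP to adenosine were rarely detected together. After thinning, 2.1% of CD8 barcodes at day 13 (62 of 2959) and 2.78% at day 19 (50 of 1800) had UMIs of both Entpd1 and Nt5e, against 7.28% and 6.55% of CD4 barcodes. Nt5e was found in 14.1% of CD8 barcodes with Entpd1 and 16.3% without at day 13, and in 12.6% and 12.4% at day 19. Cd38 did go with Entpd1: it was found in 23.6% [19.7, 27.8] of CD8 barcodes with Entpd1 and 10.4% without at day 13, and in 27.1% [22.8, 31.8] and 11.6% at day 19. In CD4 barcodes Nt5e was found in 26.2% [20.6, 32.6] of those with Entpd1 and 21.5% [18.2, 25.1] without at day 13, and in 24.5% [18.9, 30.9] and 19.9% [16.8, 23.4] at day 19. In myeloid-low ones the shares were 40.9% [29.0, 53.7] and 26.2% [21.7, 31.2] at day 13, and 31.1% [19.9, 44.3] and 19.9% [15.3, 25.2] at day 19. The share with Entpd1 was higher in each of these 4, and the intervals overlapped.

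The other genes of the pathway were described from a list of ATP release channels, nucleotide enzymes, transporters, receptors and cyclic AMP effectors, of which 55 are in the matrices. Between the CD8 states 36 were tested, 5 were past 2-fold higher and 4 lower with both Pdcd1 and Havcr2, beside 10.0% and 4.36% of all genes. Enpp2, which encodes the secreted lysophospholipase autotaxin, was 14.7 against 0.248 CPM (5.89). P2ry14, a receptor for UDP-sugars, was 16.8 against 4.51 CPM (1.90), P2ry13 gave 1.62, P2ry6 1.30 and Adora3 2.78. The lower genes were Slc17a9, the vesicular ATP carrier (8.73 against 28.9 CPM, -1.73), Art2b (-1.38), Enpp4 (-1.27) and Adk, the kinase that clears adenosine inside cells (12.5 against 28.7 CPM, -1.20), which is outside the 8 largest and was named after its value was seen. Within a day 3 of these were under 2-fold: Art2b (-0.82) and Adk (-0.70) at day 13, and P2ry6 (0.88) at day 19. In myeloid-low barcodes 2 of 32 were higher, Enpp2 and P2ry14, and 6 lower, beside 8.91% and 6.06% of all genes. The list's median log2 ratio was 0.00 and that of all genes 0.13.

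Art2b, the enzyme that modifies the P2rx7 channel, was lower at day 19 in both classes: 28.9 and 7.97 CPM in CD8 (-1.86 [-2.11, -1.62]) and 24.4 and 10.6 CPM in CD4 barcodes (-1.20 [-1.55, -0.86]). In CD8 barcodes it was the 1 gene lower of 36, beside 1.65% of all genes, and Enpp2 (1.89) and Adora3 (1.17) were higher, beside 1.6%. In CD4 barcodes it was 1 of 2 lower of 34, with P2ry12 (-1.34), beside 1.38% of all genes, and 0 were higher, beside 1.82%. P2ry12 also marked the barcodes with microglia genes (1334 CPM, against 51.2 in the others without Cd3). The part of droplet mixtures in its CD4 values was not tested. In myeloid-low CD4 barcodes 1 of 23 was lower at day 19, beside 1.59% of all genes. With Foxp3, 1 of 34 was past 2-fold lower and 0 higher, beside 1.57% and 1.41% of all genes: Pde3b, a phosphodiesterase that degrades cyclic AMP, was 20.8 against 52.5 CPM (-1.34 [-1.60, -1.07]; myeloid-low -2.83). In expanded CD8 clonotypes 3 of 34 were lower, Slc17a9 (-1.39), Enpp4 (-1.12) and Adk (-1.05, but -0.79 within day 13), and 0 higher, beside 2.86% and 3.39% of all genes. In expanded CD4 clonotypes 4 of 30 were lower (Art2b, Entpd5, Adk and P2ry12) and 0 higher, beside 1.53% and 0.872% of all genes, with a list median of -0.22 against 0.01 for all genes. These sums mix clone size with day, since 213 of the 236 expanded and 277 of the 729 single CD4 barcodes were from day 19. Within day 19 Art2b was at 6.44 CPM in expanded and 14.1 in single clonotypes, Entpd5 at 5.01 and 9.99, and Adk at 31.5 and 55.8 (a log2 ratio of -0.83 [-1.21, -0.45]), while P2ry12 was higher, 56.9 and 43.8 CPM (0.38 [0.05, 0.71]). Within day 13 expanded CD4 clonotypes held 1 to 7 UMIs of each, and Art2b was at 0.29 [-1.06, 1.37]. In myeloid-low CD4 barcodes with the days summed, 2 of 19 were lower in expanded clonotypes, beside 2.74% of all genes.

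In barcodes without Cd3 against CD8 barcodes, 12 of 38 tested were higher and 9 lower, beside 17.1% and 18.5% of all genes. Adora2b, the low-affinity adenosine receptor, was 22.9 against 1.68 CPM (3.77), Bst1, a relative of Cd38, 11.1 against 1.18 (3.23), P2ry6, a receptor for UDP, 122 against 14.6 (3.07) and Pnp, which degrades inosine, 729 against 110 (2.73). Slc29a3, a nucleoside transporter, gave 2.74. Enpp2 gave 2.72 with the days summed, but 4.27 [3.87, 4.69] at day 13 and -3.76 [-6.82, -1.88] at day 19, when barcodes without Cd3 held 2 UMIs. Lower were Art2b (1.56 against 19.9 CPM, -3.68) and Pde4d, a phosphodiesterase (5.92 against 42.5 CPM, -2.84). The list's median was 0.30 against -0.20 for all genes.

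As a description of likeness, log2(CPM + 1) of each member was correlated with 8778 genes over 14 groups of barcodes (4 CD8 states, 2 CD4 groups and barcodes without Cd3, on each day), which share 2 captures. The 3 most alike were Ggh (Pearson r of 0.96), Adam8 (0.95) and Spg21 (0.94) for Entpd1, and Cd37, Sigirr (both 0.97) and Pygb (0.96) for Nt5e. For Cd38 they were Ntan1 (0.96), Ndfip2 (0.95) and Cox8a (0.94). St13 (0.94), Chordc1 and Gpbp1l1 (both 0.87) led for Adora2a, and Tax1bp1 (0.93), Abcc4 and Eps15 (both 0.91) for P2rx7. No gene was in more than 1 of these groups of 3.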

How the data were processed

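Raw UMI counts per gene and antibody tag, for all barcodes, are in the deposited matrices, and the deposited TCR tables hold UMI counts per contig. Per the submitters' processing notes, mm10, bcl2fastq 2.20, Cell Ranger 4.0.0, STAR 2.7.5c, Seurat and R 4.1.2 were used; the files themselves are unfiltered. From the counts, with Python 3.11.15, numpy 2.4.6 and scipy 1.17.1, UMIs were summed per group of barcodes, and CPM, exact Poisson intervals and log2 ratios with exact conditional binomial intervals (95%) were computed. Matrices held 144565182 and 81224453 gene UMIs.

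States and Foxp3 groups needed 1 or more UMIs. Shares were taken after thinning to 5000 UMIs, with Clopper-Pearson intervals. A clonotype is an identical pair of TRA and TRB CDR3 nucleotide sequences within a contig set, in barcodes with exactly 1 productive chain of each. A gene was called past 2-fold, among genes with at least 100 UMIs in the sums of both groups together. The interval was checked on simulated independent Poisson sums. These hold no spread between barcodes, clones, contig sets or captures, so the check covers counting error only. No doublet caller was run, and barcodes with more than 1 TRB contig and the top 5% by UMIs were left out as an alternative. The 5 genes and the lists were chosen with earlier results of these data known. Named genes were the 5, list genes past 2-fold (at most 8 per comparison by size) and the 3 most alike genes; large clones, antibody tags, marker genes and Adk were added. Barcodes without Cd3 were split on thinned sums of at least 5 UMIs for C1q, monocyte and mature dendritic genes, 3 for microglia and type 2 dendritic genes, and 2 for type 1 dendritic and natural killer genes. No protein sequences were used here.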

Additional observations from a re-analysis of the deposited data

How the results depend on the processing

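No paired analysis was possible because each day is 1 capture and no label ties a contig set to a mouse or pool. Of the 35 member ratios (5 genes in 7 comparisons), no ratio past 2-fold changed sign under the alternatives run, while the Cd38 ratio of CD4 clonotypes (0.79) was -0.24 without day 19 contig set 2. Beyond their intervals, 15 moved in barcodes with at most 0.1% myeloid RNA, 18 with class from antibody tags (which leaves few CD4 barcodes), 10 with a minimum of 8000 gene UMIs, 5 with 1000, 6 with equal weight of contig sets, 3 of 10 with states called on thinned barcodes, 1 of 5 without Trac, Trbc1 and Trbc2 UMIs, 8 in leaving out contig sets in turn (272 did not), and 2 with class from 2 or more UMIs; none moved with at most 5% mitochondrial UMIs, without the doublet substitute's barcodes or without barcodes found in both days. Members past 2-fold went from 0 to 1 in myeloid-low barcodes for both comparisons of days, Foxp3 and CD4 clonotypes. With class from 2 or more UMIs it was 1 for CD4 days and CD4 clonotypes. Leaving out contig sets gave 0 to 1 for CD4 clonotypes. Barcodes without Cd3 gave 2 with a minimum of 8000 UMIs and 3 with antibody tag classes, in place of 4. Counts of other pathway genes past 2-fold, with at least 30 UMIs, were 4 between days in CD4, 3 for Foxp3, 7 for CD8 and 7 for CD4 clonotypes. With at least 300 UMIs they were 1 between days in CD8 and 2 for CD4 clonotypes, and between the CD8 states 2 were higher and 4 lower of 29 tested. In myeloid-low barcodes, an alternative chosen after seeing the data, they were 1 between days in CD4 and 2 for CD4 clonotypes. Without thinning, the shares of CD8 barcodes with a UMI were 28.1% for Entpd1, 23.3% for Nt5e, 23.2% for Cd38, 28.7% for Adora2a and 6.6% for P2rx7, and of CD4 barcodes 43.2%, 36.0%, 14.8%, 32.8% and 22.4%. The CD38 tag in myeloid-low CD4 barcodes at day 19 was -3.53 per 10000 in barcodes with 2 or more Cd38 UMIs against 0, and 1.48 in all; the cause of these shifts was not tested. Low UMI sums limit P2rx7 in CD8 barcodes, Cd38 in CD4 barcodes and Nt5e in barcodes without Cd3.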
